A study of Tachycineta bicolor with 20 samples.

Results

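The 100 most abundant transcripts of the tree swallow ovary were described in 20 adult females (Tachycineta bicolor), 1 ovary library per bird. Abundance was measured in CPM, the reads counted on a transcript per 1000000 reads counted in that library. Only transcripts that were alone under their ID stem in the table were eligible, which left 12280 of 14782. Whether reads of these were split with variants outside the table is not known. The 100 with the highest mean CPM over the 20 birds were taken, so members were chosen by their measured levels. They made up 0.676% of all transcripts in the table. For that reason levels, ranks and shares are given below as description, without a test. The comparisons between groups of birds were not used in the choice and were tested.

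The study raised competition in wild, cavity-nesting birds by taking nest boxes away for a time and asked how ovarian gene activity responded. Experimental Day 2 birds (n = 4) met the removal and were sampled 2 days after peak competition, and Control Day 2 birds (n = 5) were left alone and matched to them by date. Experimental Day 0 birds (n = 6) were sampled at the peak, with Control Day 0 birds (n = 5) as their untreated, date-matched counterparts. All were free-living, and the sources used here do not give their breeding state. Bird numbers below only name birds within a group.

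In most tissues a small set of genes supplies a large share of the messenger RNA. In many vertebrate tissues that set holds ribosomal proteins, translation factors, cytoskeletal proteins and mitochondrial genes, with tissue products added on top. An ovary mixes oocytes, granulosa and theca cells, stroma, muscle and blood, and its makeup shifts as follicles grow and regress. The deposited IDs are paired with no gene names, so none of these classes could be assigned to a member, the tissue label could not be checked against markers, and no sequence or role is given. For bulk tissue, fewer cells of a type and less RNA per cell cannot be told apart. Transcript lengths were not available here, so CPM orders transcripts by their share of reads and not by molecules.

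Library totals ran from 5818117 to 15718893 counts. They averaged 8560733 in Experimental Day 0 and 11288674 in Control Day 0, against 10865253 in Experimental Day 2 and 11132833 in Control Day 2. Every member was deeply covered, with 2153 counts at the lowest and 200742 at the highest in any bird, so counting error alone would give a coefficient of variation (CV, SD over mean) of 0.288 to 1.34%. Experimental birds 3 and 1 of Day 0 had the highest scores on the main axis of variation among members (16.2 and 11.4). Control bird 5 of Day 0 came next (8.41). Experimental birds 3 and 1 had totals of 6539735 and 7190914 counts. The lowest total, 5818117, was in Experimental bird 2 of Day 0, which scored -5.32. A relation of scores to library totals was not tested. Results that rest on Experimental birds 1 and 3 are given with and without both. Control bird 5 was left out only where each bird was left out in turn.

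The members together held 13.3% of all counts in a bird. In the Experimental Day 2 birds the share was 13.8, 13.6, 12.3 and 13.1%, and in the Control Day 2 birds it was 12.5, 14.4, 13.7, 12.5 and 14.5%. The Experimental Day 0 birds ran from 12.5 to 14.9%, and the Control Day 0 birds had 12.3, 13.4, 13.0, 13.8 and 12.9%. The 4 groups overlapped throughout. Group means were 13.2 ± 0.706% (SD, n = 4) in Experimental Day 2, 13.5 ± 0.957% (SD, n = 5) in Control Day 2, 13.5 ± 0.860% (SD, n = 6) in Experimental Day 0 and 13.1 ± 0.566% (SD, n = 5) in Control Day 0. These means differed by less than the spread between birds.

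The 10 most abundant members held 4.44% of counts on average, with single birds between 3.66 and 5.29%. Their share averaged 4.38 ± 0.495% in Experimental Day 2, 4.53 ± 0.551% in Control Day 2, 4.50 ± 0.435% in Experimental Day 0 and 4.34 ± 0.593% in Control Day 0. Here too, each group's mean lay within 1 SD of the others.

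**Figure D1:**
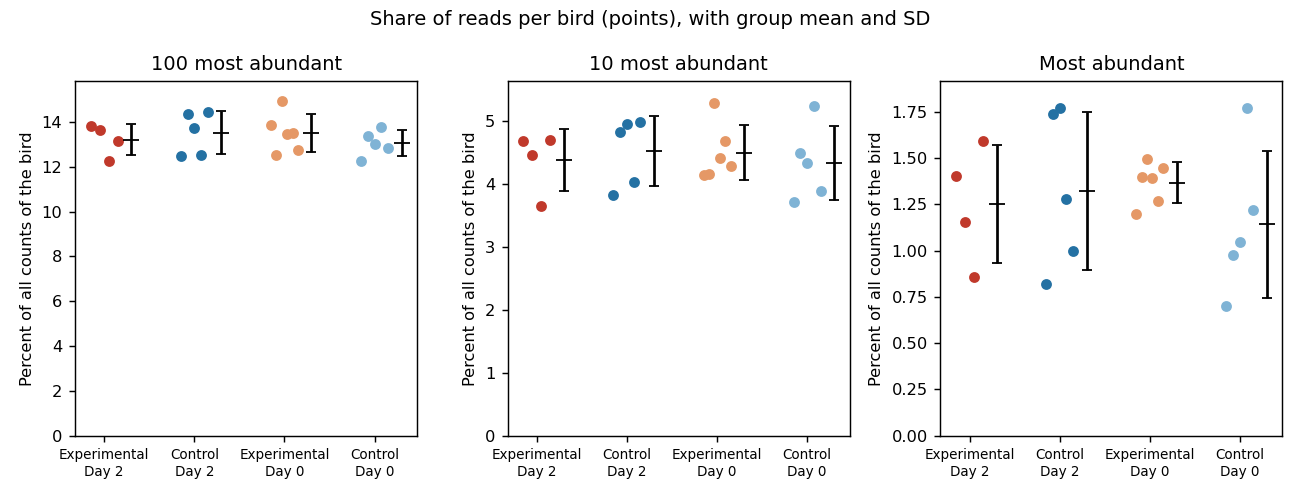
Percent of counts held by all 100 members, the 10 most abundant and the most abundant (panels from left to right, y axes) in each of the 20 birds, with Experimental left of Control within each day; points are birds and the marks beside them are group means ± SD. The shares of all 100 members lie between 12.3 and 14.9% in every group, and the groups overlap in each panel.

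The ladder of levels was steep at the top. tree_swallow002145t1_sg0.0 came first with a mean of 12758 CPM, which is 21.6 times the level of the member at rank 100. It stood first in 19 of the 20 birds and was above the next transcript, tree_swallow000202t1_sg0.0 (5505 CPM), in 20 of 20. Further down, the order was not firm from bird to bird. tree_swallow000202t1_sg0.0 was above tree_swallow053191t3_sg0.0 (4212 CPM) in 15 of 20 birds, and tree_swallow053191t3_sg0.0 was above tree_swallow005214t1_sg0.0 (3851 CPM) in 10 of 20. The next neighbours, tree_swallow004766t1_sg0.0 (3704 CPM), tree_swallow002543t1_sg0.0 (3423 CPM), tree_swallow001355t10_sg0.0 (3382 CPM), tree_swallow004890t2_sg0.1 (2639 CPM), tree_swallow003796t1_sg0.0 (2629 CPM) and tree_swallow003312t1_sg0.0 (2327 CPM), continued the ladder, and from tree_swallow005214t1_sg0.0 to tree_swallow003796t1_sg0.0 each stood above the next in 9 to 13 of the 20 birds.

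The leading transcript still varied widely. tree_swallow002145t1_sg0.0 had 14014, 11542, 8576 and 15930 CPM in Experimental Day 2 birds and 8218, 17371, 17695, 12781 and 9961 CPM in Control Day 2 birds. On Day 0 it had 11988 CPM in the lowest, a median of 13948 and 14956 CPM in the highest Experimental bird, against 7008, 9736, 10444, 17711 and 12206 CPM in Control birds. The Experimental Day 0 birds were the most alike of the 4 groups and lay inside the range of the Control Day 0 birds. The experimental minus control difference on the log2 scale was -0.08 (SE 0.25) on Day 2 and 0.30 (SE 0.23) on Day 0, and the Day 0 value did not pass the test across all transcripts (adjusted p = 0.757, edgeR).

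The limit of the list was soft. The last 3 members inside, tree_swallow005265t1_sg0.0, tree_swallow007063t1_sg0.0 and tree_swallow015216t1_sg0.0, averaged 594, 591 and 590 CPM. The first 3 outside, tree_swallow017752t1_sg0.0, tree_swallow000116t1_sg0.0 and tree_swallow003354t1_sg0.0, averaged 587, 586 and 585 CPM. Of the members, 43 were among the 100 highest eligible transcripts of every single bird, and 9 were there in fewer than 10 birds. The bird whose own list departed most was Experimental bird 3 of Day 0, which shared 65 transcripts with the list, while Experimental bird 4 of Day 0 shared 89. Over all birds, 208 transcripts entered some bird's own 100. Without the limit of 1 transcript per stem, 74 members would keep their place and 26 places would go to transcripts from stems with several variants.

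**Figure D2:**
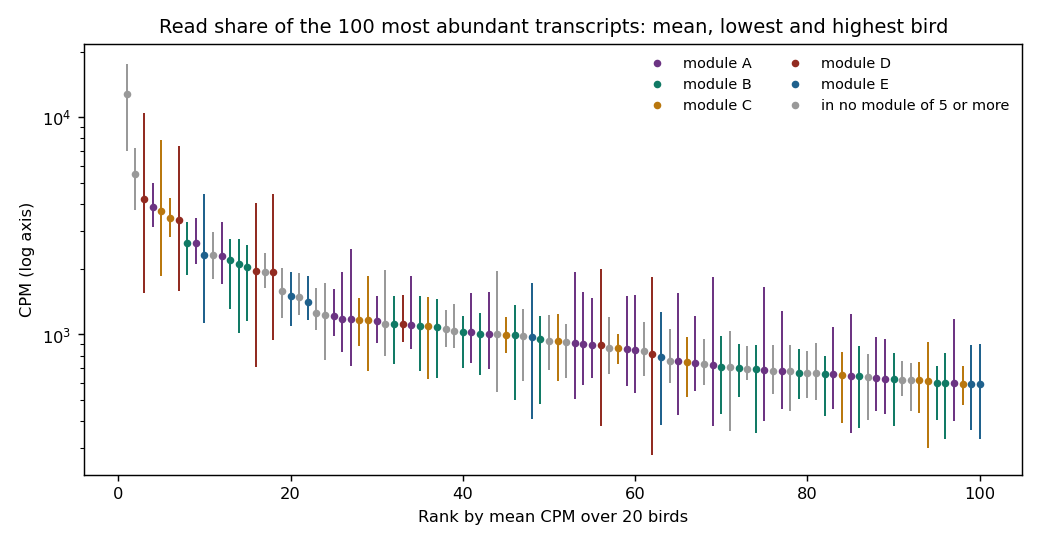
CPM of the 100 members on a log axis against their rank by mean CPM; points are means over 20 birds and vertical lines run from the lowest to the highest bird. Levels drop from 12758 CPM at rank 1 to 590 CPM at rank 100, and the vertical lines of neighbouring ranks overlap; colours mark the modules described further on.

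Members differed among themselves in how much birds varied. The CV over 20 birds had a median of 19.8% and ran from 8.85 to 51.1%. Taking out counting error left a median of 19.8%, so counting error was a small part of this spread. In 28 members the CV was under 15%, and in 11 it was over 40%. The ratio of the highest to the lowest bird had a median of 2.16 and reached 4 or more in 10 members.

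The steadiest members were tree_swallow006109t1_sg0.0 (CV 8.85%), tree_swallow000774t1_sg0.0 (9.49%), tree_swallow004666t1_sg0.0 (9.63%), tree_swallow002497t1_sg0.0 (9.87%) and tree_swallow006892t1_sg0.0 (10.3%). tree_swallow006109t1_sg0.0 had 933, 728, 738 and 816 CPM in Experimental Day 2 birds and 1003, 953, 932, 879 and 870 CPM in Control Day 2 birds. It had 793, 870 and 914 CPM in the lowest, median and highest Experimental Day 0 bird, against 774, 759, 880, 951 and 840 CPM in Control Day 0 birds. No bird was more than 1.38 times another.

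At the other end, the most variable members were tree_swallow053191t3_sg0.0 (CV 51.1%), tree_swallow015571t1_sg1.2 (48.4%), tree_swallow021869t1_sg0.0 (46.6%), tree_swallow001355t10_sg0.0 (46.3%) and tree_swallow012255t8_sg1.1 (46.3%). tree_swallow053191t3_sg0.0 had 3840, 6201, 3601 and 2597 CPM in Experimental Day 2 birds and 3701, 5583, 3351, 2160 and 10526 CPM in Control Day 2 birds. It had 1556, 3510 and 7419 CPM in the lowest, median and highest Experimental Day 0 bird, against 3803, 6366, 4303, 2234 and 2760 CPM in Control Day 0 birds. Its span was 6.76-fold, and high and low birds occurred in every group. In Control bird 5 of Day 2 it exceeded tree_swallow002145t1_sg0.0 and was the most abundant transcript of that ovary.

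tree_swallow004766t1_sg0.0, at rank 5, also had a wide span. Its levels were 3103, 2867, 1856 and 5695 CPM in Experimental Day 2 birds and 2574, 3183, 5981, 4334 and 2295 CPM in Control Day 2 birds. They were 2391, 3952 and 5697 CPM in the lowest, median and highest Experimental Day 0 bird, against 2423, 2679, 3299, 7905 and 1941 CPM in Control Day 0 birds. The groups overlapped, and the highest level was in Control bird 4 of Day 0.

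Set beside less abundant transcripts, the members were not unusually steady. The median CV was 18.8% in the next 100 transcripts by rank, 18.1% in the 800 after those and 24.9% over all 13742 tested transcripts. After counting error was taken out these became 18.7, 18.0 and 23.7%. The members' median thus lay below that of all tested transcripts and slightly above that of the ranks just under them. No test was made of these differences, since transcripts of the same birds are not independent.

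Members did not vary independently of one another. Over the 4950 pairs, Pearson's r of log2(CPM + 1) across 20 birds ran from -0.94 to 0.98. In 876 pairs (17.7%) it was over 0.5, and in 802 pairs (16.2%) it was under -0.5. These shares were 21.1 and 19.2% in the next 100 transcripts by rank and 18.8 and 14.2% in the 800 after those. Over all tested transcripts they were 7.94 and 6.95%. The tightest pair was tree_swallow015679t1_sg0.0 with tree_swallow025059t1_sg0.0 (r = 0.98), and the most opposed was tree_swallow000909t1_sg0.0 with tree_swallow012255t8_sg1.1 (r = -0.94), both pairs chosen after their values were seen. The correlations are descriptive, because all members share the 20 libraries and are parts of the same totals. The first principal component of the members held 42.7% of their variance, the second 17.4% and the third 7.83%. For comparison, the first component held 46.9% in the next 100 transcripts by rank, 41.0% in the 800 after those and 27.5% over all tested transcripts.

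The birds with the highest scores on the first component were 3 birds of Day 0 and 1 of Day 2. Experimental bird 3 of Day 0 scored 16.2 and Experimental bird 1 scored 11.4, followed by the fifth Control bird of that day (8.41) and Control bird 2 of Day 2 (5.50). The lowest scores were -7.36 in Experimental bird 6 of Day 0 and -6.73 in the fourth Control bird of Day 2. High and low birds thus came from both treatments and both days. Without Experimental birds 1 and 3 of Day 0, the component held 35.2% of the variance. The axis was shared with the other 13642 tested transcripts. Birds' scores from the members alone and from those transcripts alone had r = 0.99 in size over 20 birds, and the same value without those 2 birds.

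Grouping members by their correlation (average linkage, split at r = 0.5) gave 5 modules with at least 5 members, which took in 72 members. Another 21 fell into 8 groups of at most 4, and 7 stood alone. The modules were built from these data, so agreement within them is a description.

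**Figure D3:**
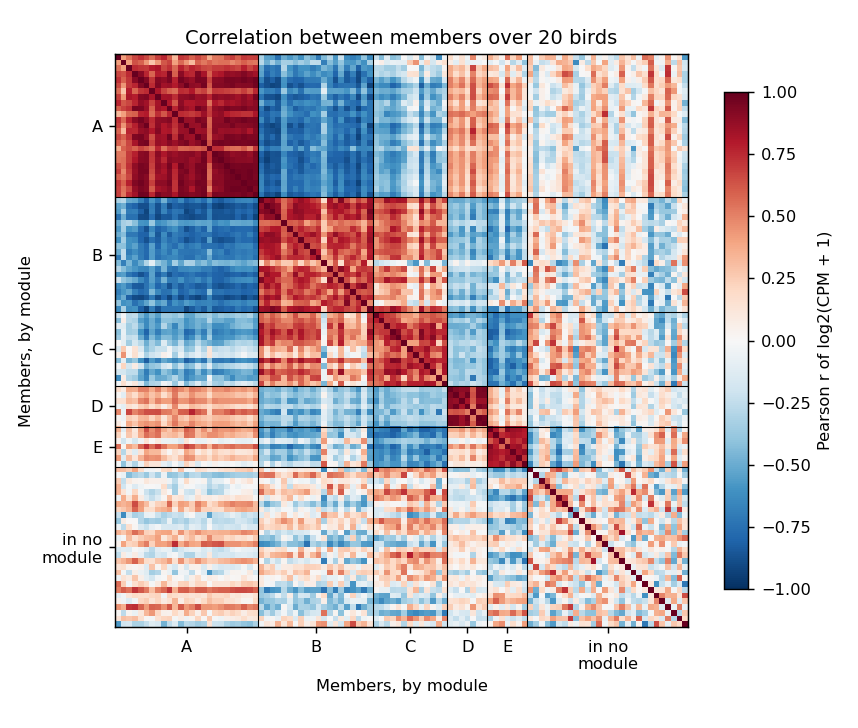
Pearson's r between all pairs of the 100 members over 20 birds (colour, -1 to 1), with members ordered by module A to E and then the rest on both axes. Squares of positive r on the diagonal are the modules, and the rectangle between modules A and B is negative throughout, with a median of -0.73.

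Module A was the largest, with 25 members and a median r of 0.84. Its share of counts was 2.59, 2.90, 2.86 and 2.49% in Experimental Day 2 birds and 2.33, 3.47, 2.50, 2.21 and 2.54% in Control Day 2 birds. In Experimental Day 0 birds 1 to 6 it was 4.01, 2.21, 4.47, 2.71, 2.73 and 2.20%, against 2.32, 2.73, 2.37, 2.53 and 3.43% in Control Day 0 birds. The same Experimental birds 3 and 1 of Day 0 were at the top, and the remaining Experimental Day 0 birds lay within the range of the Control Day 0 birds or just under it. The members closest to its mean profile were tree_swallow013269t1_sg0.0, tree_swallow009295t1_sg0.0 and tree_swallow012979t1_sg0.0.

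Module B, with 20 members and a median r of 0.69, ran the other way. All pairs of a Module A and a Module B member had a negative r, with a median of -0.73. Module B held 2.48, 2.15, 2.09 and 2.49% of counts in Experimental Day 2 birds and 2.52, 1.88, 2.34, 2.59 and 2.28% in Control Day 2 birds. In Experimental Day 0 birds 1 to 6 it held 1.58, 2.46, 1.36, 2.56, 2.11 and 2.59%, against 2.13, 2.06, 2.46, 2.54 and 1.69% in Control Day 0 birds. The lowest birds of Module B were the highest 2 of Module A, followed by Control bird 5 of Day 0. Without Experimental birds 1 and 3 of Day 0 the opposition was weaker, with a median r of -0.53 and 95.2% of pairs negative, and the medians within Modules A and B were 0.72 and 0.48. The members nearest the mean of Module B were tree_swallow000909t1_sg0.0, tree_swallow000469t1_sg0.0 and tree_swallow001897t1_sg0.0.

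The leading members of the modules show the same contrast. tree_swallow013269t1_sg0.0 of Module A had 563, 629, 687 and 451 CPM in Experimental Day 2 birds and 417, 782, 471, 399 and 513 CPM in Control Day 2 birds. It had 415, 577 and 1177 CPM in the lowest, median and highest Experimental Day 0 bird, against 457, 589, 498, 486 and 768 CPM in Control Day 0 birds. Its highest level was in Experimental bird 3 of Day 0, where tree_swallow000909t1_sg0.0 of Module B had its lowest level of 1306 CPM. In the other birds of that group tree_swallow000909t1_sg0.0 reached up to 2757 CPM. Of all members, tree_swallow013269t1_sg0.0 entered the fewest birds' own 100 highest transcripts, 6 of 20.

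Module C had 13 members with a median r of 0.67 and held 1.19 to 2.23% of counts. It included tree_swallow004766t1_sg0.0 and tree_swallow002543t1_sg0.0, and its most typical members were tree_swallow007005t1_sg0.0, tree_swallow000964t1_sg0.0 and tree_swallow005184t1_sg0.0. Module E had 7 members with a median r of 0.81 and held 0.493 to 1.16%. It was represented by tree_swallow002754t1_sg0.0, tree_swallow003312t1_sg0.0 and tree_swallow007063t1_sg0.0. Modules C and E opposed each other in 100% of their pairs, with a median r of -0.61, and the median was -0.66 without Experimental birds 1 and 3 of Day 0. This second opposition did not rest on those birds.

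Module D was the most variable. It had 7 members, a median r of 0.89 and a median CV of 44.7%, and included tree_swallow053191t3_sg0.0, tree_swallow001355t10_sg0.0 and tree_swallow021869t1_sg0.0. It held 1.31, 1.91, 1.21 and 0.949% of counts in Experimental Day 2 birds and 1.18, 1.65, 1.24, 0.777 and 3.14% in Control Day 2 birds. In Experimental Day 0 birds 1 to 6 it held 1.46, 0.949, 2.22, 0.932, 1.63 and 0.649%, against 1.79, 2.26, 1.54, 0.831 and 0.999% in Control Day 0 birds. The span was 4.83-fold, set by Control bird 5 of Day 2 at the top and Experimental bird 6 of Day 0 at the bottom. The lowest r between any of its members was 0.51.

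**Figure D4:**
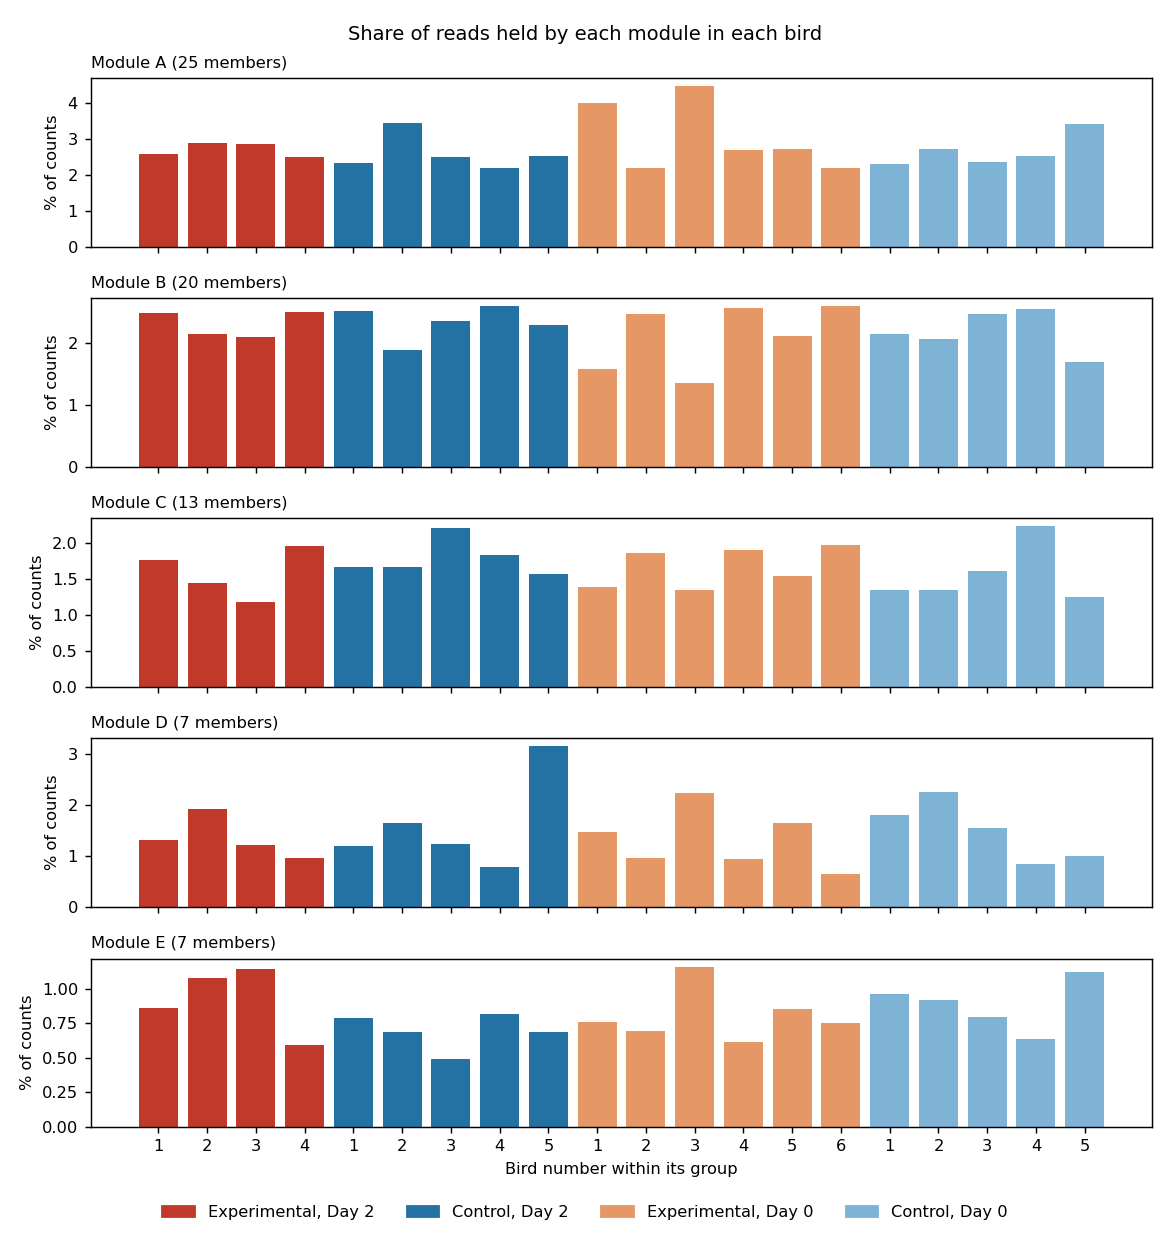
Percent of counts held by each of the 5 modules (panels A to E) in each of the 20 birds, with Experimental left of Control within each day; each bar is 1 bird, numbered within its group. Module A reaches 4.47% and Module B drops to 1.36% in the same bird, and Module D spans 0.649 to 3.14%.

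The next measure was how much of the members' variation lay between the 4 groups of treatment and day. For each member, the share of its variance on the log2(CPM + 1) scale that lay between groups was taken. The median was 10.7% over members, against 15.6% over all tested transcripts. Random grouping of the birds gives a mean of 15.8%. Its median was not computed, and a mean need not equal a median, so neither median can be set against it. Without Experimental bird 6 of Day 0 the members' median was 16.4%. For that median the 15.8% is no reference either, since it is a mean and holds for 20 birds. With all birds, the share between groups was over 40% in 3% of members and in 6.20% of all tested transcripts. By module, the median was 8.81% in A, 10.4% in B, 29.6% in C, 4.25% in D and 16.1% in E.

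On Day 2, 2 days after the peak of competition, no member differed between Experimental and Control birds at an adjusted p under 0.05 in edgeR's quasi-likelihood test, where 0.00728% of all tested transcripts were called. DESeq2 and limma-voom called 0 members as well, and 0.124% and 0.102% of all tested transcripts in that order. At an unadjusted p under 0.05 there were 6 members in edgeR, against 6.08% of all tested transcripts. Of these, 3 were higher, against 3.56%, and 3 lower, against 2.53%. The median log2 fold change was -0.04 over members and 0.01 over all tested transcripts. Of the members, 44 were on the higher side, against 52.0% of all tested transcripts. For 91 members the 95% interval of the fold change lay within 1 log2 unit of 0 on either side, which held for 73.9% of all tested transcripts.

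The member with the smallest p for a higher level on Day 2 was tree_swallow002754t1_sg0.0 of Module E. It had 874, 1142, 1275 and 571 CPM in Experimental Day 2 birds and 722, 513, 382, 777 and 626 CPM in Control Day 2 birds. The means were 965 ± 311 CPM (SD, n = 4) and 604 ± 159 CPM (SD, n = 5), and 3 Experimental birds were above every Control bird while 1 was below 3 of them. The log2 fold change was 0.66 (SE 0.23) with an adjusted p of 0.685 in edgeR, so the difference did not pass. All 7 members of Module E were on the higher side on Day 2, with a median of 0.38, and 12 of the 13 members of Module C were on the lower side, with a median of -0.22. Members of a module move together by construction, so such counts are close to a single observation each. Modules C and E also opposed each other, so their counts are not separate results.

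tree_swallow008783t1_sg0.0 was the member with the smallest p for a lower level on Day 2. It had 997, 851, 710 and 991 CPM in Experimental Day 2 birds and 1054, 1107, 1243, 1072 and 1094 CPM in Control Day 2 birds. The ranges did not overlap. It was 1 member of 100 without overlap in this comparison, against 1.94% of all tested transcripts, of which 1.11% were lower and 0.83% higher in Experimental birds. The means were 887 ± 136 CPM (SD, n = 4) and 1114 ± 75.1 CPM (SD, n = 5), and the log2 fold change of -0.34 (SE 0.14) had an adjusted p of 0.771 in edgeR.

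At the peak of competition, on Day 0, again no member was called by edgeR, DESeq2 or limma-voom. Of all tested transcripts, edgeR and limma-voom called 0% and DESeq2 0.102%. At an unadjusted p under 0.05 there were 3 members, against 7.62% of all tested transcripts. All 3 were higher in Experimental birds, against 4.13% higher and 3.49% lower over all tested transcripts. No member separated the 2 groups without overlap, as 0.742% of all tested transcripts did (0.175% higher, 0.568% lower). The median log2 fold change was 0.08 over members and 0.00 over all tested transcripts. Of the members, 71 were on the higher side, against 50.6% of all tested transcripts. Without Experimental birds 1 and 3 that split became 48 higher and 52 lower, with a median of -0.02. With all birds and no normalization factors it was 59 higher and 41 lower, with a median of 0.04. In Module A, 25 of 25 members were on the higher side with all birds (median 0.30). Without Experimental birds 1 and 3 of Day 0 there were 2 of 25 (median -0.09). Those 2 birds were the highest of Module A and both Experimental, and the high Control bird 5 of Day 0 was kept. The direction of this shift was therefore set by the choice of birds, and it is no independent check.

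tree_swallow019143t1_sg0.0 had the smallest p for a higher level on Day 0. It had 989, 1230 and 1734 CPM in the lowest, median and highest Experimental Day 0 bird, against 767, 971, 1041, 930 and 1196 CPM in Control Day 0 birds. The ranges overlapped, with means of 1283 ± 274 CPM (SD, n = 6) and 981 ± 157 CPM (SD, n = 5). The log2 fold change was 0.43 (SE 0.15) with an adjusted p of 0.575 in edgeR. On the lower side the smallest p belonged to tree_swallow001538t1_sg0.0, whose log2 fold change was -0.29 (SE 0.21, adjusted p = 0.742, edgeR). It was -0.49 without Experimental bird 5 of Day 0. Leaving out Control bird 1 or Control bird 2 of Day 0 gave -0.11 or -0.19, and leaving out Experimental birds 1 and 3 of Day 0 gave -0.14. Its Control Day 0 values of 1976 and 1721 CPM in birds 1 and 2 stood above the 874 to 1122 CPM of the other 3.

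Averaged over both days, treatment gave 0 called members in edgeR, DESeq2 and limma-voom, each with 0% of all tested transcripts called. In edgeR, 0 members had an unadjusted p under 0.05, against 3% of all tested transcripts, with 1.55% higher and 1.45% lower. For all 100 members the 95% interval lay within 1 log2 unit of 0, which held for 89.2% of all tested transcripts. The smallest p on the higher side was that of tree_swallow000387t1_sg0.0 (log2 fold change 0.18, SE 0.10) and on the lower side that of tree_swallow007549t1_sg0.0 (-0.14, SE 0.10, and -0.08 without Experimental bird 4 of Day 2).

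Whether the treatment difference changed between days was tested as an interaction, the Day 2 log2 fold change minus the Day 0 one. edgeR and limma-voom each called 0 members and 0% of all tested transcripts. DESeq2 called 1 of the 100 members, against 0.568% of all tested transcripts. At an unadjusted p under 0.05 in edgeR there were 11 members, against 11.4% of all tested transcripts. Of these, 3 were positive, against 5.57%, and 8 negative, against 5.78%. The median was -0.18 over members and 0.01 over all tested transcripts, and it was -0.02 over members without Experimental birds 1 and 3 of Day 0. The error was largest here, with a median SE of 0.26 over members and 0.32 over all tested transcripts. For 67 members the 95% interval lay within 1 log2 unit of 0, which held for 51.8% of all tested transcripts.

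The member DESeq2 called was tree_swallow008783t1_sg0.0, with an adjusted p of 0.0371. In edgeR its interaction was -0.71 (SE 0.19) with an adjusted p of 0.251. It was lower in Experimental birds on Day 2 and higher in them on Day 0, where it had 795, 995 and 1108 CPM in the lowest, median and highest Experimental bird, against 681, 614, 855, 864 and 822 CPM in Control birds. The Day 0 means were 962 ± 129 CPM (SD, n = 6) and 767 ± 113 CPM (SD, n = 5). The opposite sign was that of tree_swallow002754t1_sg0.0, with an interaction of 0.92 (SE 0.31) and an adjusted p of 0.304 in edgeR. All 13 members of Module C had a negative interaction (median -0.34) and all 7 of Module E a positive one (median 0.57). Both directions stayed without Experimental birds 1 and 3 of Day 0 (medians -0.49 and 0.66). Each count is close to a single observation, and Modules C and E opposed each other, so they are not separate results.

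Between days within Experimental birds, edgeR, DESeq2 and limma-voom called 0 members. Of all tested transcripts, edgeR called 0%, DESeq2 0.0655% and limma-voom 0.00728%. At an unadjusted p under 0.05 there were 2 members, 1 in each direction, against 5.1% of all tested transcripts, of which 2.33% were higher and 2.77% lower on Day 2. tree_swallow000800t1_sg0.0 was on the higher side, with 728, 895, 989 and 817 CPM in Experimental Day 2 birds and 430, 682 and 769 CPM in the lowest, median and highest Experimental Day 0 bird. The log2 fold change was 0.38 (SE 0.17) with an adjusted p of 0.899 in edgeR, and the ranges overlapped. tree_swallow003787t1_sg0.0 was on the lower side (-0.32, SE 0.14, adjusted p of 0.899). Without Experimental birds 1 and 3 of Day 0 these values were 0.25 and -0.16.

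A single member had Experimental Day 2 birds all below Experimental Day 0 birds, against 1.08% of all tested transcripts without overlap in either direction (0.495% higher, 0.582% lower). It was tree_swallow010783t1_sg0.0, singled out after its values were seen, with 633, 624, 605 and 581 CPM on Day 2 and at least 642 CPM on Day 0. Its log2 fold change was -0.25 (SE 0.14, adjusted p of 0.899 in edgeR), and -0.10 without Experimental birds 1 and 3 of Day 0. In Module A, 0 of 25 members were on the higher side on Day 2 with all birds (median -0.23), and 25 of 25 without Experimental birds 1 and 3 of Day 0 (median 0.14). Those 2 birds were the highest of Module A and both of Day 0, so the direction of this shift too was set by the choice.

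Between days within Control birds, edgeR and limma-voom each called 0 members and 0% of all tested transcripts. DESeq2 called 3 of the 100 members, against 1.37% of all tested transcripts. At an unadjusted p under 0.05 in edgeR there were 11 members, against 13.7% of all tested transcripts. Of these, 9 were higher on Day 2, against 5.49%, and 2 lower, against 8.19%. The median log2 fold change was 0.05 over members and -0.03 over all tested transcripts. The same Control birds enter the treatment comparisons, so values that are high or low in them appear in both.

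The smallest p was again that of tree_swallow008783t1_sg0.0, whose Control Day 2 levels of 1054 to 1243 CPM were all above the Control Day 0 levels of 614 to 864 CPM. The log2 fold change was 0.57 (SE 0.14) with an adjusted p of 0.140 in edgeR and 0.00506 in DESeq2. DESeq2 also called tree_swallow019143t1_sg0.0 (adjusted p of 0.0431) and tree_swallow007261t1_sg0.0 (adjusted p of 0.0487), which was named after its values were seen. These 3 members were also those with over 40% of variance between the 4 groups, against 6.20% of all tested transcripts. That share comes from the same values as the calls, so it is no separate result. The other member without overlap was tree_swallow007005t1_sg0.0 of Module C, with 1301, 1174, 1492, 1248 and 1247 CPM in Control Day 2 birds and 758, 853, 1067, 1120 and 787 CPM in Control Day 0 birds. That made 2 members without overlap, both higher, against 2.58% of all tested transcripts (1.33% higher, 1.25% lower).

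tree_swallow002754t1_sg0.0 had the smallest p among members lower in Control Day 2 birds. Its levels there, listed above, averaged 604 ± 159 CPM (SD, n = 5), against 946, 1016, 764, 638 and 1171 CPM in Control Day 0 birds, which averaged 907 ± 210 CPM (SD, n = 5). The ranges overlapped, and the log2 fold change was -0.54 (SE 0.22) with an adjusted p of 0.284 in edgeR. By module, 13 of 13 members of Module C were on the higher side on Day 2 (median 0.24) and 0 of 7 of Module E (median -0.32). Here too these counts are not separate results, since the modules opposed each other. Module E held 0.694 ± 0.127% of counts in Control Day 2 and 0.885 ± 0.184% in Control Day 0 (SD, n = 5 each).

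**Figure D5:**
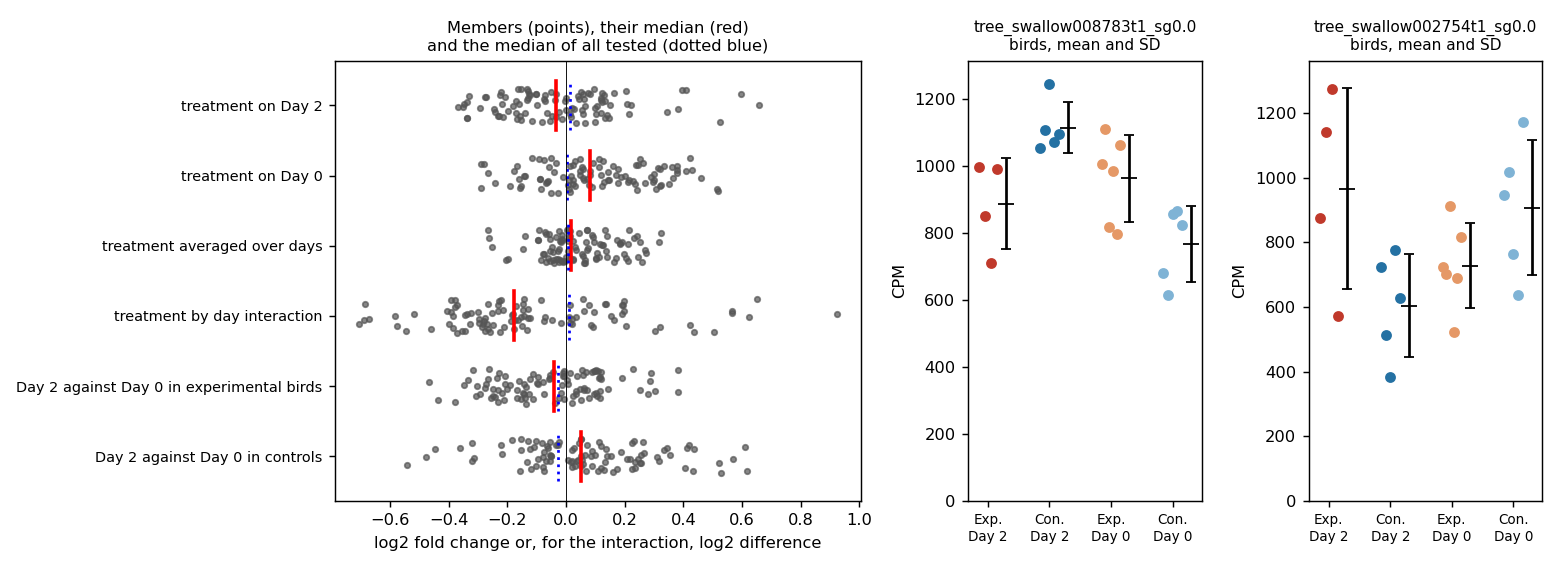
Left, log2 fold changes of the 100 members (points) in each of the 6 comparisons, with their median in red and that of all tested transcripts in dotted blue; right, CPM per bird of tree_swallow008783t1_sg0.0 and tree_swallow002754t1_sg0.0 by group, with mean ± SD. No member passed an adjusted p under 0.05 in edgeR, and tree_swallow008783t1_sg0.0 has its highest levels, 1054 to 1243 CPM, in Control Day 2 birds.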

How the data were processed

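Ovary RNA of 20 tree swallows was sequenced after extraction with Trizol from tissue frozen in the field, with libraries that select mRNA and keep strand, per the labels' protocols. The submitters' processing notes name the tools CASAVA and SAMtools, fastp 0.20.1, and Bowtie2 2.4.2. The sources used here do not give each tool's role, the sequence reference, or how reads were counted and whether strand was used. The authors deposited raw counts, whole numbers for each transcript in each library and not normalized. A row that names no transcript had a count of 0 and was left out.

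From these counts, CPM was computed on library totals, which counted the 14782 transcripts of 13412 ID stems, and 1132 stems with several transcripts gave no member. The members and lists were chosen with earlier results of these data known. Transcripts passing filterByExpr (minimum count 10, minimum total 15) numbered 13742, among them all 100 members, and the 1040 left out held at most 0.0856% of any library. They were fitted together with TMM factors and 4 group means by robust quasi-likelihood (edgeR 4.0.16 under R 4.3.3), and p-values were adjusted by Benjamini-Hochberg over all of them. A call is an adjusted p under 0.05, SEs are those of the log2 fold change, and the common biological coefficient of variation was 0.319. Group values are plain CPM with the SD over birds, each a separate bird. Over the members, chi-square divided by its degrees of freedom ran from 116 to 1888 for the 41 within-group pairs of birds, so no library was taken as a duplicate. Correlations, components and variance between groups used log2(CPM + 1).

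Members were named by rule. These were the 10 of highest mean CPM, the 5 of highest and 5 of lowest CV, any called member, the 1 higher and 1 lower member of smallest p per comparison, those at the rank limit, and the 3 nearest each module's mean. Alternatives were RLE factors, no factors, TMM factors from transcripts outside the list, no filter, 1 CPM in 10 birds, DESeq2 1.42.0, limma-voom with weights per bird (limma 3.58.1), fits of the compared groups alone, an adjusted p under 0.10, other choices and numbers of members, another pseudocount, and each bird left out. Leaving out Experimental birds 1 and 3 of Day 0 together was chosen after seeing the data.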

Additional observations from a re-analysis of the deposited data

Results flagged for a closer look

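Among 196 checks (4 groups for each of 49 transcripts or shares), 10 values stood far from the rest of their group, where chance alone would give about 1 in 20, or 9.8. The level of tree_swallow004766t1_sg0.0 was 7905 CPM in Control bird 4 of Day 0, where the other birds of the group had 1941 to 3299 CPM. tree_swallow002543t1_sg0.0 reached 4238 CPM in Control bird 3 of Day 2 (others 3263 to 3545), and tree_swallow003312t1_sg0.0 reached 4421 CPM in Experimental bird 3 of Day 0 (others 1623 to 2643). In Control bird 2 of Day 2, tree_swallow015571t1_sg1.2 had 1094 CPM (others 380 to 552), tree_swallow012255t8_sg1.1 had 1007 CPM (others 398 to 570) and Module A, which holds both, had 3.47% of counts (others 2.21 to 2.54%). tree_swallow000774t1_sg0.0 had 798 CPM in Experimental bird 1 of Day 2 (others 679 to 696). tree_swallow001538t1_sg0.0 had 1386 CPM in Experimental bird 2 of Day 2 (others 979 to 989) and 1815 CPM in Experimental bird 5 of Day 0 (others 793 to 1118). tree_swallow008783t1_sg0.0 reached 1243 CPM in Control bird 3 of Day 2 (others 1054 to 1107). Without that bird its difference between days in Control birds had an adjusted p of 0.336 in edgeR.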

How the results depend on the processing

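The share of counts held by the members, 13.3%, became 16.1% with no limit on transcripts per stem, 9.75% with 50 members and 18.4% with 200 members. Without Experimental birds 1 and 3 of Day 0, the median CV was 17.0% (19.8% with all birds) and the first component held 35.2% of variance (42.7% with all birds). DESeq2 called 1 member in the interaction and 3 between days in Control birds, where edgeR called 0. Over all tested transcripts DESeq2 called 0.568% and 1.37% in these comparisons. Among the called members, tree_swallow008783t1_sg0.0 had log2 values of -0.71 and 0.59, and the cause was not tested. With 1 bird left out at a time, the share ran from 13.3 to 13.4%, the median CV from 17.9 to 20.3%, the first component from 37.9 to 44.5% and the median variance between groups from 8.40 to 16.4%. DESeq2 and limma-voom were not rerun this way. In edgeR the count of called members stayed at 0 in each of the 6 comparisons, with a lowest adjusted p of 0.0982 between days in Control birds. Of the fold changes rerun this way, that of tree_swallow002145t1_sg0.0 on Day 2 (-0.08) ran from -0.23 to 0.054 and turned positive without Experimental bird 3, Control bird 2 or Control bird 3 of Day 2. On Day 0 it ran from 0.16 to 0.54. The others rerun kept their direction. No paired analysis was possible because bird numbers follow sample order and tie no bird of one group to a bird of another. Counting error alone would give a member a CV of at most 1.34% over the 20 birds. The median SE of the treatment fold changes on single days was 0.18 to 0.20 log2 units.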
